A study of Mus musculus with 8 samples.

Results

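Interleukin receptor chains were examined in T29 cells, a mouse line from a thymic lymphoma. The 10 genes chosen by name were Il2ra, Il2rb, Il2rg, Il4ra, Il6ra, Il6st, Il10ra, Il21r, Il27ra and Il18r1. A gene was included when the platform annotation gave it at least 1 probe set (a group of short probes for 1 transcript) with a single gene symbol. This held for 9 of the 10, through 19 probe sets, out of 18193 genes in all, and Il2rg was not analysed here. The probe set with the highest mean over the arrays stood for its gene, and every probe set is described.

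All 8 samples were T29 cells, which the series describes as deficient in Ikaros, transduced with a MigR1 vector. In 4 samples the vector carried nothing further, and in the other 4 it carried Ik1ER, a form of Ikaros that 4-hydroxytamoxifen (4OHT) activates. Within each kind of cell, 2 samples received 100 nM 4OHT and 2 received the solvent ethanol, in each case for 24 h, and 1 Affymetrix array was run per sample. The 4 groups were thus MigR1 ethanol, MigR1 4OHT, Ik1ER ethanol and Ik1ER 4OHT, with n = 2 in each. Ik1ER is expressed from a vector and not from the cell's own Ikzf1 gene, and all groups come from 1 cell line. Not given in the sources used here is whether the transduced cells were clones or pools, or whether samples of a group were grown as separate cultures. The p-values therefore measure the spread between these samples alone, and it may be technical.

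Interleukins bind receptors built from chains that are shared between cytokines. The common gamma chain serves the receptors for IL-2, IL-4, IL-7, IL-9, IL-15 and IL-21, whereas gp130 (Il6st) serves those for IL-6 and IL-27, and the chain encoded by Il10rb serves those for IL-10 and IL-22. Most of these chains signal through JAK kinases and STAT factors, while the IL-18 receptor belongs to the IL-1 receptor family and signals through MyD88. In the thymus, Il2ra (CD25) marks early thymocytes, and mature T cells change several of these chains as they differentiate. Ikaros is the zinc finger protein made from Ikzf1, which binds DNA in lymphocytes.

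Values are log2 expression values, so that a difference of 1 is a factor of 2, and ± gives the SD over the 2 arrays of a group. A gene was called when its adjusted p in limma, corrected by the method of Benjamini and Hochberg over all 18193 genes, was under 0.05. Array medians lay between 5.36 and 5.43. As a gauge of background, 27 probe sets for Bacillus transcripts had means of at most 5.27, with a median of 3.33. The Bacillus limit below is the highest of these means, so a reading under it can still exceed the typical control. Of the 9 measured thymocyte markers, 8 had means above that level, with Cd5 the exception. Of the 5 measured B cell markers 2 were above it, as were 3 of 6 myeloid, 0 of 3 natural killer, 1 of 4 stromal and 2 of 3 erythroid markers. Of the probe sets for Ikzf1, the gene the vector supplies, 1 averaged 8.13 and 8.34 in MigR1 cells (ethanol and 4OHT) and 10.88 and 10.86 in Ik1ER cells. The other lay between 9.97 and 10.44 on all 8 arrays, MigR1 cells included. The replicate 2 arrays of the Ik1ER cells stood apart in their control probe sets. On them the transferrin receptor control read higher by its 3' than by its 5' probe set, by 1.66 (ethanol) and 1.91 (4OHT), against 1.15 to 1.39 on the other 6 arrays. Ik1ER 4OHT replicate 2 also had dimmer hybridization controls, with a mean of 8.65, while the other 7 arrays had means from 9.14 to 9.28.

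The study's main question is what changes when Ikaros activity is induced, asked here of the receptor chains. Among them Il21r rose with 4OHT in Ik1ER cells, and the other 8 were not called in any comparison by the probe set that stood for the gene. Il21r encodes the chain that binds IL-21, a cytokine of activated T cells, and that pairs with the common gamma chain. It was measured by 1 probe set. In MigR1 cells Il21r read 6.77 and 6.85 in ethanol and 6.74 and 6.62 in 4OHT. In Ik1ER cells it read 6.72 and 6.43 in ethanol. With 4OHT it read 7.98 and 8.04 in Ik1ER cells. Both Ik1ER 4OHT arrays thus lay above all 6 other arrays, and every reading was above the Bacillus controls.

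The group means of Il21r in Ik1ER cells were 6.58 ± 0.21 in ethanol and 8.01 ± 0.05 in 4OHT (SD, n = 2). The difference was 1.43 (SE 0.11, 95% interval 1.19 to 1.67, 2.69-fold, limma, adjusted p = 0.000496), which exceeds the spread between replicates. In MigR1 cells the same difference was -0.13 (SE 0.11, limma, adjusted p = 1), and the means were 6.81 ± 0.06 and 6.68 ± 0.08 (SD, n = 2). The 4OHT effect on Il21r was larger in Ik1ER than in MigR1 cells by 1.56 (SE 0.15, 95% interval 1.22 to 1.90, limma, adjusted p = 0.00473). Between cells Il21r was 1.33 higher in Ik1ER than in MigR1 cells with 4OHT (SE 0.11, limma, adjusted p = 0.000767). In ethanol it differed by -0.23 (limma, adjusted p = 0.921), with both Ik1ER readings below both MigR1 readings. In order of level, Ik1ER 4OHT stood highest, and the 3 other groups differed from each other by at most 0.23 and in no called comparison. These comparisons share arrays and are not independent of each other. In RNA from a whole culture, more cells that express Il21r and more transcript per cell cannot be told apart.

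Il21r was thus 1 of 9 measured chains called in this comparison, against 5.35% of all 18193 genes (973). By size it ranked 32 among the 516 called rises. The number of genes called over the whole table fell to 439 without Ik1ER ethanol replicate 1 and to 440 without Ik1ER ethanol replicate 2. Il21r kept its call, with a difference between 1.29 and 1.58, with any single array left out. Where an Ik1ER array was left out, the lone array of its group was assumed to vary like those of the other groups. Without both replicate 2 arrays of the Ik1ER cells, an alternative chosen after seeing the data, Il21r differed by 1.25 between the single arrays left. The spread in that fit comes from MigR1 arrays alone, so its tests say nothing about the spread of Ik1ER cells. The genes whose profiles lay closest to that of Il21r were Mrgpre, Tdrkh and Prr13. Closeness was measured as the root mean square difference between log2 values over the 8 arrays, each gene centred on its own mean, and came to 0.12, 0.15 and 0.15 in that order. In Ik1ER cells these genes differed with 4OHT by 1.32, 1.12 and 1.27, a likeness to Il21r that follows from how they were chosen.

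Il21r lies next to Il4ra on mouse chromosome 7, and the promoters of both are shown because one neighbour was called and the other was not. Every probe set of Il4ra averaged below the Bacillus limit, which limits what can be read from its missing call. The sequences are those of RefSeq for build GRCm38.p6 and run from 250 bases before to 50 after the gene's start, 5′ to 3′. The Il21r window is chr7:125603179-125603478 and the Il4ra window is chr7:125552021-125552320, both on the plus strand. Capitals mark GGGAA on either strand, the core of the motif known for Ikaros.
Il21r: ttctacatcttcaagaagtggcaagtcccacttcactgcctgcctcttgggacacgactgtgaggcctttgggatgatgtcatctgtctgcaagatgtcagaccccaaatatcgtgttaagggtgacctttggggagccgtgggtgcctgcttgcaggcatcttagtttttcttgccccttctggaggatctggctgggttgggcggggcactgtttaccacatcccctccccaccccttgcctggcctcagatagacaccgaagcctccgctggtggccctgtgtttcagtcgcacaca
Il4ra: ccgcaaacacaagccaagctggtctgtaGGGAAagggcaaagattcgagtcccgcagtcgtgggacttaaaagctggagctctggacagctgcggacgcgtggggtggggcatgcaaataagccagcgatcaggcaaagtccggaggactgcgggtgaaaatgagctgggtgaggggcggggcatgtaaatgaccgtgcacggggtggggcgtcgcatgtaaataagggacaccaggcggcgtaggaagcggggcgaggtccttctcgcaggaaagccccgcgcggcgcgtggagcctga
The Il21r window holds 0 matches and the Il4ra window 1. Of all 32851 promoters of this length in the table, 62.7% hold at least 1 match. The table holds 8 promoters of 6 measured chains, 3 of them of Il18r1, and 7 of the 8 hold a match. A match is only a run of letters, and no binding was measured in this series.

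**Figure D1:**
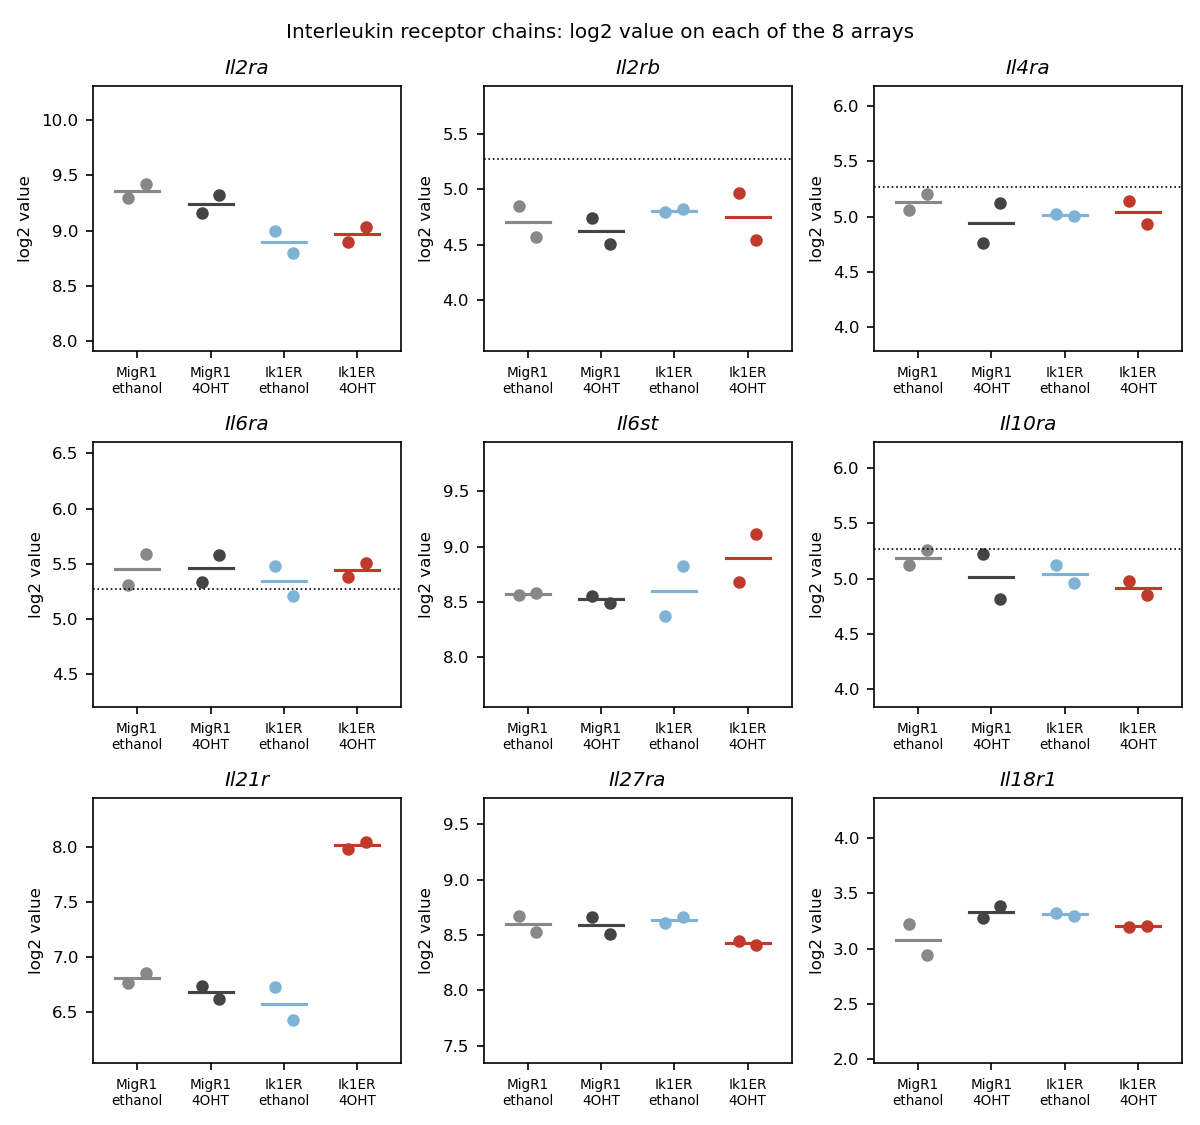
Log2 value of each of the 9 measured receptor chains on each of the 8 arrays, by group. Points are arrays, short bars are group means, the dotted line is the highest Bacillus control mean (5.27) where it falls in the panel, and every panel spans the same number of log2 units. Il21r reads 7.98 and 8.04 in the Ik1ER 4OHT group and at most 6.85 elsewhere, whereas the other chains stay within 0.74 from lowest to highest array.

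Among the chains chosen by name and measured, the others of the common gamma group were not called. Further chains of this group, some of them called, are described below with the chains listed for comparison. Il4ra encodes the chain that binds IL-4 and IL-13. In Ik1ER cells it read 5.15 and 4.93 in 4OHT, and both ethanol arrays lay between these (mean 5.01 ± 0.02, SD). In MigR1 cells it read 5.06 and 5.21 in ethanol and 4.76 and 5.13 in 4OHT. The groups overlap, and all readings lie below the Bacillus limit. The difference with 4OHT was 0.02 (95% interval -0.28 to 0.33, limma, adjusted p = 0.955) in Ik1ER cells. Its 2 other probe sets read differences of 0.21 and 0.31 there, neither called, and the dimmer of them had both 4OHT arrays (4.74 and 4.56) above both ethanol arrays (4.26 and 4.42).

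Il2ra encodes the alpha chain that gives the IL-2 receptor its high affinity. Its brighter probe set read 9.30 and 9.42 in MigR1 ethanol and 9.16 and 9.32 in MigR1 4OHT. In Ik1ER cells it read 8.99 and 8.80 in ethanol and 8.90 and 9.04 in 4OHT. All 4 Ik1ER arrays lay below all 4 MigR1 arrays, while ethanol and 4OHT overlapped within each kind of cell. The 4OHT effect was 0.07 in Ik1ER cells (95% interval -0.16 to 0.31, limma, adjusted p = 0.796) and -0.12 in MigR1 cells (limma, adjusted p = 1). Between the cells the difference was -0.47 in ethanol (SE 0.10, unadjusted p = 0.00185, limma, adjusted p = 0.850) and -0.27 in 4OHT (SE 0.10, limma, adjusted p = 0.207). It was therefore not called, although it was the largest difference of the 9 chains in ethanol. The second probe set of Il2ra read -0.34 in both comparisons, with overlapping arrays.

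Il2rb encodes the beta chain shared by the receptors for IL-2 and IL-15. Its values ran from 4.51 to 4.97 over the 8 arrays, below the Bacillus limit. The 4OHT effect was -0.05 in Ik1ER cells (95% interval -0.41 to 0.30, limma, adjusted p = 0.916) and -0.08 in MigR1 cells. A second, dimmer probe set read lower with 4OHT on both arrays in Ik1ER and in MigR1 cells (-0.22 and -0.20), and neither was called.

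Of the gp130 group, Il6st encodes the signalling chain itself. Its brightest probe set read 8.56 and 8.58 in MigR1 ethanol and 8.56 and 8.49 in MigR1 4OHT. In Ik1ER cells it read 8.38 and 8.83 in ethanol and 8.68 and 9.12 in 4OHT. The groups of Ik1ER cells overlap, because replicate 2 read higher than replicate 1 in both. The difference with 4OHT was 0.30 (SE 0.17, 95% interval -0.10 to 0.69, limma, adjusted p = 0.449), the largest among the chains not called. The 3 other probe sets of Il6st read differences of 0.22, -0.01 and 0.29, none called. They disagreed in how the arrays were ordered. The probe set that read 0.22 had both Ik1ER 4OHT arrays (7.44 and 7.38) above the other 6 arrays, which read at most 7.28. On the replicate 2 arrays of the Ik1ER cells, the dimmest read 6.80 and 7.46, against 6.03 to 6.76 on the other 6 arrays. Another read 6.76 and 6.67 there, against 6.99 to 7.17 elsewhere. These are the arrays with the large 3' to 5' difference given above, whose part in the values of Il6st was not tested. With both left out, Il6st differed by 0.30 between the single Ik1ER arrays that remained.

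Il6ra encodes the chain that binds IL-6. It read 5.31 and 5.59 in MigR1 ethanol, 5.34 and 5.58 in MigR1 4OHT, 5.48 and 5.21 in Ik1ER ethanol and 5.38 and 5.50 in Ik1ER 4OHT. The groups overlap, and the 4OHT effect was 0.10 in Ik1ER cells (95% interval -0.22 to 0.41, limma, adjusted p = 0.795) and 0.01 in MigR1 cells. The other probe set of Il6ra gave another picture. It read 4.94 and 4.83 in Ik1ER ethanol and 5.19 and 5.28 in Ik1ER 4OHT, against 4.73 to 4.98 on the MigR1 arrays. With 4OHT it was 0.45 higher in Ik1ER than in MigR1 cells (SE 0.08, limma, adjusted p = 0.0311 over 34945 probe sets), as 1 of 2 probe sets called among the 19 of these chains, against 2.94% of all. The rise with 4OHT within Ik1ER cells, 0.35, was not called (limma, adjusted p = 0.0729), and the means of this probe set were all below the Bacillus limit. Il27ra encodes the chain that pairs with gp130 to bind IL-27. It read 8.67 and 8.53 in MigR1 ethanol, 8.67 and 8.51 in MigR1 4OHT, 8.60 and 8.66 in Ik1ER ethanol and 8.45 and 8.41 in Ik1ER 4OHT. Both Ik1ER 4OHT arrays lay below all 6 others, by a small margin. The difference in Ik1ER cells was -0.20 (SE 0.09, 95% interval -0.40 to -0.01, limma, adjusted p = 0.270), which was not called.

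**Figure D2:**
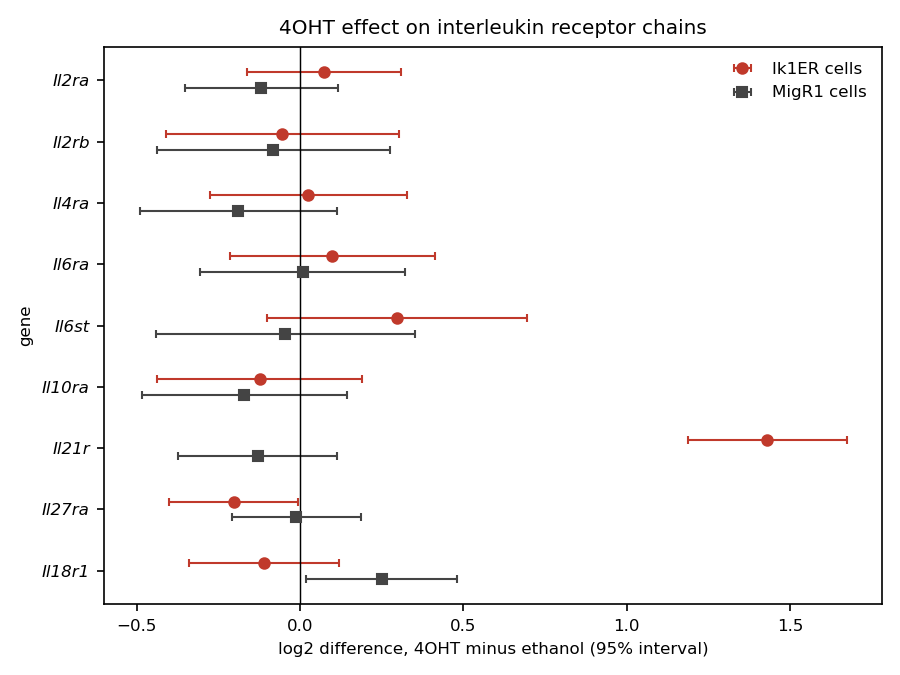
Log2 difference between 4OHT and ethanol for each measured chain in Ik1ER cells (circles) and in MigR1 cells (squares), with 95% intervals from limma. Il21r stands at 1.43 in Ik1ER cells and at -0.13 in MigR1 cells, and every other difference lies between -0.20 and 0.30.

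The IL-10 receptor pairs Il10ra, which binds the cytokine, with Il10rb. Il10ra read 4.81 to 5.26 over the 8 arrays, below the Bacillus limit throughout. The 4OHT effect was -0.12 (95% interval -0.44 to 0.19, limma, adjusted p = 0.733) in Ik1ER cells and -0.17 in MigR1 cells. Its second probe set read 5.78 and 5.24 in MigR1 ethanol and 4.98 and 4.93 in MigR1 4OHT. In Ik1ER cells that probe set read 4.83 and 4.61 in ethanol and 4.70 and 4.49 in 4OHT. All 4 Ik1ER arrays of that probe set thus lay below all 4 MigR1 arrays, and the difference in ethanol was -0.79 (limma, adjusted p = 0.586 over 34945 probe sets). The third probe set, at 3.43 to 3.97, did not show that order.

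Il18r1 encodes the IL-18 binding chain and was the dimmest of the chains, with readings from 2.94 to 3.39, all below the Bacillus limit. It read 3.22 and 2.94 in MigR1 ethanol, 3.28 and 3.39 in MigR1 4OHT, 3.33 and 3.30 in Ik1ER ethanol and 3.20 and 3.21 in Ik1ER 4OHT. The groups did not overlap in either kind of cell, with 4OHT higher in MigR1 and lower in Ik1ER cells. The differences were 0.25 (SE 0.10, limma, adjusted p = 1) and -0.11 (SE 0.10, limma, adjusted p = 0.662), and the difference between these was -0.36 (limma, adjusted p = 0.387). None was called, and at this signal the arrays give no measure of the transcript's level.

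Across the 9 chains, limma called 1 higher and 0 lower with 4OHT in Ik1ER cells, against 2.84% higher and 2.51% lower of all genes. In limma 2 of the 9 had an unadjusted p under 0.05, against 17.6% of all genes. The median difference was 0.02, against -0.00 for all 18193 genes. The 2 arrays of each group did not overlap for 3 of the 9 (Il21r higher, Il27ra and Il18r1 lower), against 42.7% of all genes (21.1% higher and 21.6% lower). In MigR1 cells 0 of the 9 were called, against 0.0055% of all genes (1), and 1 of the 9, Il18r1, had an unadjusted p under 0.05, against 2.12% of all genes. The arrays there did not overlap for 3 of the 9 (Il18r1 higher, Il21r and Il6st lower), against 29.8% of all genes. For the difference between the effects of 4OHT in the 2 kinds of cell, 1 of 9 was called, Il21r, against 1.26% of all genes (229). That number fell to 51, 66, 71 and 78 without a MigR1 array (4OHT replicate 2, ethanol replicate 1, ethanol replicate 2 and 4OHT replicate 1). It fell to 103 without Ik1ER ethanol replicate 1 and to 109 without Ik1ER ethanol replicate 2, with Il21r called each time. Between Ik1ER and MigR1 cells, 0 of 9 were called in ethanol, where limma called 0% of all genes and 2 of the 9 had an unadjusted p under 0.05, against 5.24% of all genes. The arrays did not overlap for 5 of the 9 in ethanol, Il18r1 higher in Ik1ER cells and Il2ra, Il4ra, Il10ra and Il21r lower, against 37.5% of all genes. With 4OHT 1 of 9 was called there, Il21r, against 5.1% of all genes, and the arrays did not overlap for 5 of the 9, against 44.7%. That percentage moves with single arrays, as 293 genes were called without MigR1 4OHT replicate 1 and 242 without MigR1 4OHT replicate 2, against 928 with all arrays. When every probe set with 1 symbol was tested on its own, 1 of the 19 of these chains was called with 4OHT in Ik1ER cells, against 3.25% of 34945 probe sets.

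**Figure D3:**
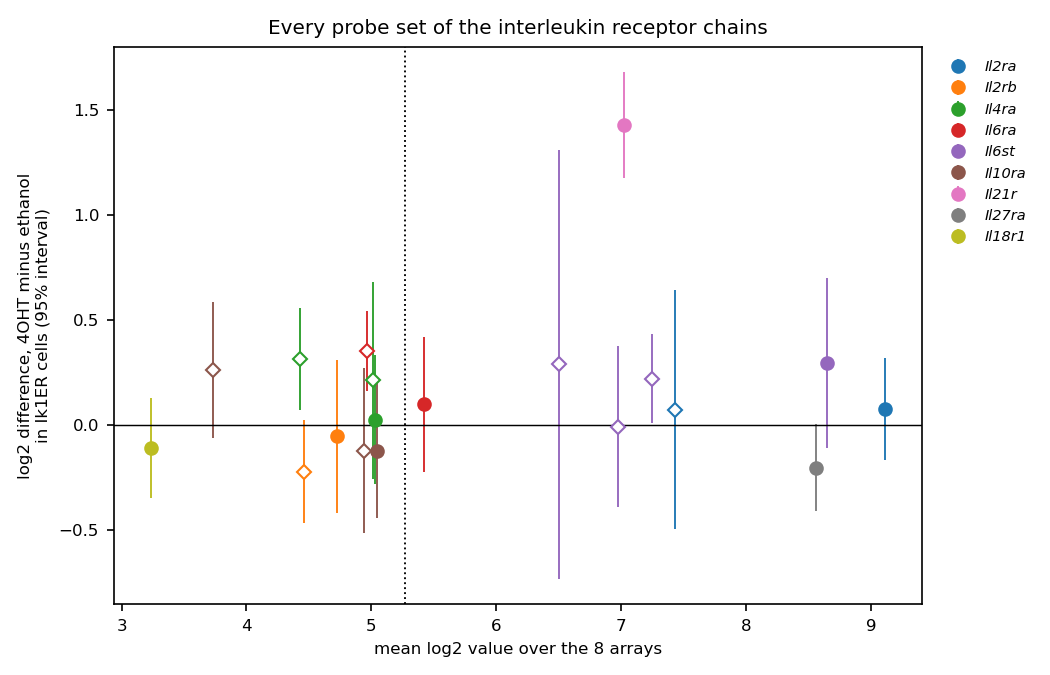
Each of the 19 probe sets of the measured chains, by its mean log2 value over the 8 arrays and its log2 difference between 4OHT and ethanol in Ik1ER cells, with 95% intervals. Filled circles stand for their gene and open diamonds are the other probe sets; the dotted line is the highest Bacillus control mean (5.27), with 9 probe sets above it and 10 below. Only the Il21r probe set is called.

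Further interleukin receptor chains were listed for comparison, 32 in all, of which 29 were measured. With 4OHT in Ik1ER cells 3 rose, 1 fell and 25 were not called, with a median difference of 0.01. Of all genes, limma called 2.84% higher and 2.51% lower there. Il10rb, the partner chain of Il10ra, rose. It read 6.06 and 5.83 in Ik1ER ethanol and 7.45 and 7.40 in Ik1ER 4OHT, and between 5.83 and 6.09 on the 4 MigR1 arrays. Its difference was 1.48 (SE 0.10, 2.78-fold, limma, adjusted p = 0.000298), close in size to that of Il21r. In MigR1 cells Il10rb differed by 0.18 (limma, adjusted p = 1), and the effects differed between the cells by 1.30 (SE 0.14, limma, adjusted p = 0.00627). A second probe set of Il10rb, with a mean of 3.63, below the Bacillus limit, read 0.01, so that the mean of both probe sets gave 0.74. Il10ra was not called by any of its 3 probe sets.

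Il9r encodes the chain that binds IL-9 and pairs with the common gamma chain, as Il21r does. It read 6.27 and 6.07 in Ik1ER ethanol and 7.23 and 6.84 in Ik1ER 4OHT, and rose by 0.86 (SE 0.13, 1.81-fold, limma, adjusted p = 0.0100). The call was lost without Ik1ER ethanol replicate 2 (limma, adjusted p = 0.0693), and also when only the Ik1ER arrays were fitted. Il17rb, which encodes the receptor chain for IL-25, rose by 0.55 (SE 0.09, limma, adjusted p = 0.0149). Il15ra, which binds IL-15 and works with Il2rb, fell from 8.33 and 8.53 in Ik1ER ethanol to 7.69 and 7.95 in Ik1ER 4OHT. Its difference was -0.61 (SE 0.12, limma, adjusted p = 0.0222), and its second probe set read -0.51. The calls of Il17rb and Il15ra were each lost without Ik1ER ethanol replicate 1, Ik1ER ethanol replicate 2 or Ik1ER 4OHT replicate 1 (adjusted p at most 0.0910 and 0.136), while their differences stayed at 0.53 to 0.56 and -0.74 to -0.48. For Il9r, Il17rb and Il15ra the difference between the effects in the 2 kinds of cell was not called (0.73, 0.49 and -0.54, limma, adjusted p = 0.136, 0.154 and 0.221).

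**Figure D4:**
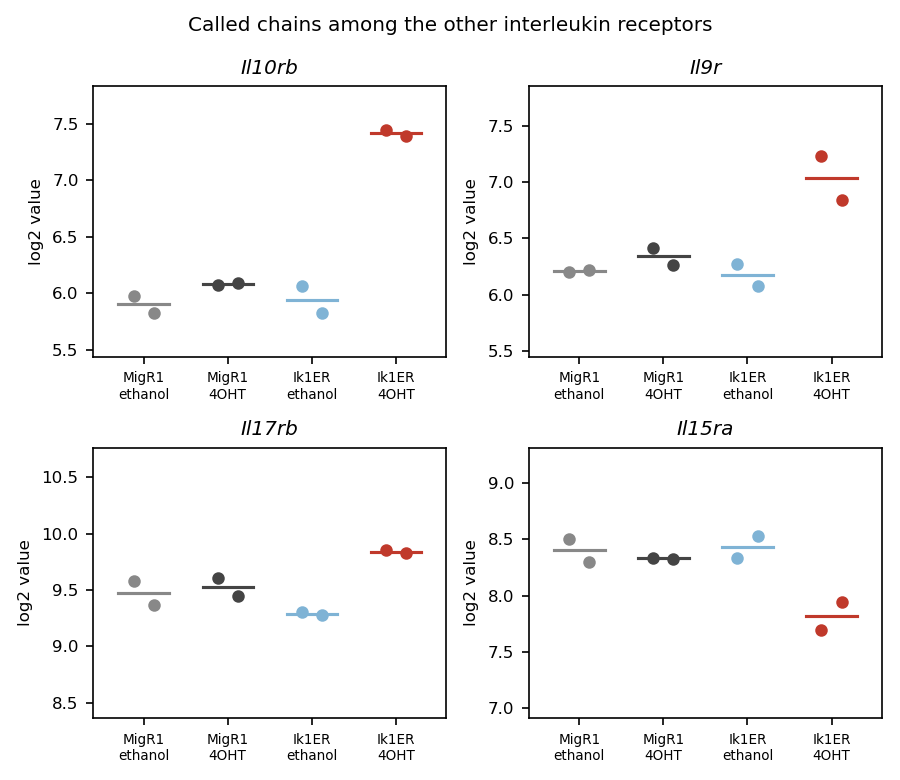
Log2 value of Il10rb, Il9r, Il17rb and Il15ra, the chains called with 4OHT in Ik1ER cells among the 29 further chains measured, on each of the 8 arrays. Points are arrays and short bars are group means; the Ik1ER 4OHT arrays lie above all others for Il10rb, Il9r and Il17rb and below all others for Il15ra.

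Of the 12 measured receptors of the same structural classes for other cytokines, 3 rose with 4OHT in Ik1ER cells, 0 fell and 9 were not called. The share of all genes called there was 2.84% higher and 2.51% lower. Ifngr1, the ligand-binding chain for interferon gamma, rose by 0.84 (SE 0.11, limma, adjusted p = 0.00475) and kept its call with any single array left out. The chains of the receptor for type I interferons, Ifnar2 and Ifnar1, rose by 0.63 and 0.42 (limma, adjusted p = 0.0312 and 0.0425). Both lost their call without MigR1 4OHT replicate 1, MigR1 4OHT replicate 2, Ik1ER ethanol replicate 1, Ik1ER ethanol replicate 2 or Ik1ER 4OHT replicate 1, and Ifnar1 also without Ik1ER 4OHT replicate 2 (adjusted p at most 0.166 for Ifnar2 and 0.193 for Ifnar1). For Ifngr1, Ifnar2 and Ifnar1 the effects of 4OHT in Ik1ER and MigR1 cells differed by 0.77, 0.47 and 0.30, none of them called (limma, adjusted p = 0.0640, 0.386 and 0.453). Among the 15 measured ligands of these receptors limma called 0, against 5.35% of all genes. Of these ligands 1, Il10, had an unadjusted p under 0.05 (-0.42, limma, adjusted p = 0.134), against 17.6% of all genes. The gene for IL-21 itself differed by -0.01 (limma, adjusted p = 0.972).

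Downstream of the receptors, limma called 0 of the 10 measured JAK kinases and STAT factors, against 5.35% of all genes. In limma 2 of them had an unadjusted p under 0.05, against 17.6% of all genes. These were Stat5a, which carries the IL-2 signal (-0.42, adjusted p = 0.109), and the kinase gene Tyk2 (0.23, adjusted p = 0.177), and Stat3, used by IL-21, IL-6 and IL-10, differed by -0.03. Of 17 negative regulators 1 rose and 2 fell, against 2.84% higher and 2.51% lower of all genes. An unadjusted p under 0.05 in limma was reached by 6 of the 17, against 17.6% of all genes. The feedback inhibitor gene Socs1 rose by 0.63 (SE 0.07, limma, adjusted p = 0.00295), whereas Socs3, which binds gp130, and Socs5 fell by 0.42 and 0.35 (limma, adjusted p = 0.0178 and 0.0411). Socs3 lost its call without Ik1ER ethanol replicate 1, Ik1ER ethanol replicate 2 or Ik1ER 4OHT replicate 2, and Socs5 whichever array was left out (adjusted p up to 0.105 for Socs3 and 0.191 for Socs5). The 2 other Socs3 probe sets read -0.80 and -0.66 in Ik1ER cells. Both were called when tested on their own (limma, adjusted p = 0.0305 and 0.00959 over 34945 probe sets). Between Ik1ER and MigR1 cells the 4OHT effect differed for Socs1 by 0.59 (limma, adjusted p = 0.0420), a call lost in 13 of 19 alternatives, and the differences for Socs3 and Socs5 were not called (-0.48 and -0.36, limma, adjusted p = 0.0877 and 0.219). Of 15 STAT target genes, the only ones called were Socs1 and Socs3, which that list also holds, against 5.35% of all genes. However, 7 of the 15 had an unadjusted p under 0.05 in limma, against 17.6% of all genes. The largest difference not called on that list was 0.54 in size. Of 9 measured genes of IL-18 and MyD88 signalling limma called 0, and 1 had an unadjusted p under 0.05, against 17.6% of all genes. Medians of the 7 lists lay between -0.02 and 0.06.

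**Figure D5:**
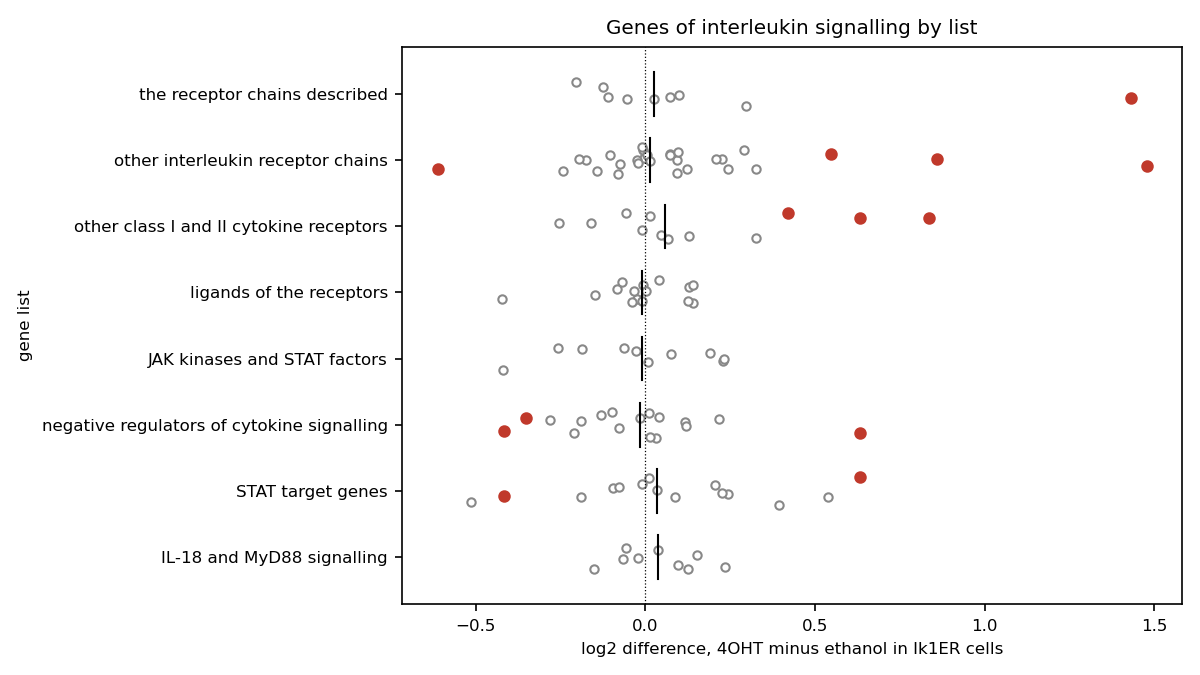
Log2 difference between 4OHT and ethanol in Ik1ER cells for each gene of 8 groups, the 9 measured chains on top and 7 lists of related genes below. Filled points are called by limma, open points are not, vertical bars are medians, and vertical scatter within a row has no meaning. Il21r (1.43) and Il10rb (1.48) lie farthest to the right.

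Markers of thymocytes and of other cell types moved with 4OHT in Ik1ER cells beside these changes. Of the 6 measured myeloid markers 2 fell, Cd14 by 1.26 and Lyz2 by 0.60, and 1 rose, Itgam by 0.54 (limma, adjusted p = 0.000556, 0.0222 and 0.0205). The share of all genes called, here and for the marker lists below, was 2.84% higher and 2.51% lower. Cd14 kept its call with any single array left out, whereas Lyz2 and Itgam lost theirs without either Ik1ER ethanol array or Ik1ER 4OHT replicate 1 (adjusted p up to 0.130 and 0.121). The log2 of their summed level was 7.85 to 7.93 in Ik1ER 4OHT and 8.23 to 8.34 in the other groups, and Itgam, Fcgr3 and Adgre1 had means below the Bacillus limit. For thymocyte markers the sum was 14.94 to 15.08 against 15.16 to 15.25. It mostly reads Cd3d, Cd3g, Thy1 and Rag1, with means of 13.42, 12.79, 12.72 and 12.62, as Cd8a and Cd4 averaged 9.77 and 7.21. Of the 9 measured, 2 rose and 4 fell, among them Cd8a (1.84), Cd4 (0.72), Cd3g (-0.69) and Cd3e (-0.43). Of these Cd3g kept its call with any single array left out. Cd8a lost it without Ik1ER ethanol replicate 2, Cd3e without replicate 1 of either Ik1ER group, and Cd4 without either Ik1ER ethanol array or Ik1ER 4OHT replicate 1 (adjusted p up to 0.104, 0.0988 and 0.150). The difference between the 4OHT effects in Ik1ER and MigR1 cells was called for Cd14 and Cd3g (-1.30 and -0.70, limma, adjusted p = 0.00627 and 0.0490). For Cd3g that call was lost with every probe set tested on its own. It was not called for Cd8a, Cd4, Cd3e, Lyz2 and Itgam (limma, adjusted p = 0.143, 0.170, 0.158, 0.105 and 0.338). For stromal markers the sum was 8.75 to 8.76 against 8.85 to 9.69, with 0 of 4 called by limma. That sum mostly reads Pdgfrb, with a mean of 9.06, as Col1a1, Col1a2 and Col3a1 averaged 3.62, 5.06 and 3.02, below the Bacillus limit. Of the B cell, natural killer and erythroid markers limma called 0, and their sums overlapped with those of at least 1 other group. The part of these shifts in the readings of Il21r and Il10rb was not tested.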

How the data were processed

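The deposited table holds log2 expression values, 1 column per array, for which the submitters' processing notes name RMA, with no version. RMA gives arrays a common distribution, which hides any overall change in RNA content, and compresses differences of dim genes. Names came from the platform annotation: of 45101 probe sets, 34945 have 1 gene symbol, which gave 18193 genes. For genes outside the chains, probe sets ending in _x_at served only genes with no other. Groups of 2 arrays came from the sample titles. All 8 arrays entered 1 limma fit (version 3.58.1, R 4.3.3; 4 residual degrees of freedom, moderated), with Benjamini-Hochberg adjustment and a threshold of 0.05. The code was tested on simulated data. The chains and the gene lists were chosen with earlier results of these data known. Named are all measured chains, the called genes of each list (up to 4), the 3 genes of closest profile and Ikzf1; the uncalled genes given with values (Il10, Il21, Stat3, Stat5a and Tyk2) were chosen after their values were seen. Alternatives covered the replicate block, dim genes, moderation, normalization, probe set choice, arrays fitted, a size threshold and each array left out. No depth applies to arrays, and n = 2 limits precision.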

Additional observations from a re-analysis of the deposited data

Results flagged for a closer look

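The effect of 4OHT on Il21r differed between the kinds of cell. It was 1.43 in Ik1ER cells and -0.13 in MigR1 cells, a difference of 1.56 (SE 0.15, limma, adjusted p = 0.00473), with both Ik1ER 4OHT arrays above the other 6. Over the alternatives the adjusted p of this difference for Il21r ran from 0.00108 to 0.0326.

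The effect of 4OHT on Il10rb also differed. It was 1.48 in Ik1ER cells and 0.18 in MigR1 cells, a difference of 1.30 (SE 0.14, limma, adjusted p = 0.00627), again with both Ik1ER 4OHT arrays above the other 6.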

How the results depend on the processing

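Each of the 9 measured chains was tested in 5 comparisons, and the 45 results, read from the probe set that stood for the gene, kept their side of the threshold in every alternative that gave a value. With every probe set tested, the dimmer Il6ra set was called in 4OHT between the cells (adjusted p = 0.0311). The number of members called stayed at 1 with 4OHT in Ik1ER cells and at 0 in MigR1 cells, also with the replicate block and with each array left out in turn. For Il21r the difference in Ik1ER cells ran from 1.29 to 1.58 with at most 1 array left out (limma, adjusted p from 7.19e-05 to 0.00823). With dim genes left out, 10916 genes were tested, and chains below that limit gave no value. Array numbers are shared between groups, but the labels do not say that a number marks a shared culture or day. Deviations of arrays with the same number correlated at 0.45 in Ik1ER cells, 0.27 in MigR1 cells and -0.07 between the 4OHT groups. With the replicate block limma called 1155 genes with 4OHT in Ik1ER cells, against 973.

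For all genes, the 973 called with 4OHT in Ik1ER cells became 412 from the 4 Ik1ER arrays alone and 153 with a log2 difference of at least 1. The 229 with differing effects became 439 with trend and robust moderation and 112 with the size threshold. The 928 between cells in 4OHT became 429 from their own 4 arrays and 141 with the size threshold. Without both Ik1ER replicate 2 arrays, where only MigR1 arrays give the spread, these numbers were 388, 100 and 594. The causes were not tested. Il10rb kept its call in Ik1ER cells throughout. Over the 8 arrays, every probe set of Il2rb, Il4ra, Il10ra and Il18r1 averaged below the Bacillus level of 5.27, which limits what can be read for them, although a second Il10ra set averaged 5.51 in MigR1 ethanol and an Il4ra set read 5.43 on 1 array.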
